A study of Mus musculus with 12 samples.

Results

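The 10 genes described here encode Atf3 and 9 further transcription factors of the immediate early class: Fos, Fosb and Fosl2 of the Fos family, Jun, Junb and Jund of the Jun family, and Egr1, Ier2 and Nr4a1. They were taken by gene symbol from the deposited table of counts, where all 10 were found among 55367 mouse genes. Of these, 9 passed the filter on low counts, as did 13384 genes in all, and Fosb did not.

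RNA was measured by sequencing of whole blood from CB17-SCID mice, a strain without functional T and B lymphocytes, that carried grafts of HT1376, an established human line from a bladder carcinoma. One control group received vehicle for 11 days, and 3 groups received CPI-0209, an inhibitor of the histone methyltransferases EZH2 and EZH1, by mouth each day at 35 mpk for 11 days, with blood drawn 1 h, 6 h or 24 h after the last dose. Each group had 3 libraries, and every mouse, vehicle included, bore the same kind of xenograft. The labels give neither the age of the mice, nor the time at which vehicle blood was drawn, nor whether the libraries of a group came from separate animals, so p-values measure only the spread between these libraries, which may be technical, and collection time and treatment cannot be told apart in a comparison with vehicle.

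Immediate early genes are transcribed within minutes of a stimulus, without new protein synthesis, when kinases of the MAP kinase and cAMP pathways act on factors already bound at their promoters, among them SRF with its ETS partners and CREB. Fos proteins pair with Jun proteins through leucine zippers to form AP-1, which binds TGACTCA-like sites, whereas Jun proteins can also pair with themselves and with ATF proteins. Atf3, a basic leucine zipper protein of the ATF/CREB family, is induced by stress and by Toll-like receptor signals, and in macrophages and neutrophils it is known as a repressor of cytokine genes.

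Promoter stretches are shown for 4 members, Atf3, Fos, Junb and Nr4a1. Other members are not shown, among them Jund, and Fosb, which also holds TGACG and an EGR site. The stretches come from RefSeq promoters on GRCm38.p6, which matched 8 of the 10 members, all but Egr1 and Ier2. The stretches are written 5′ to 3′ on the strand of the gene, and were limited to 150 bases upstream of the start that no annotated exon covers. Capitals mark TGACG or its reverse complement CGTCA, the core of the cAMP response element, in Fos, Junb and Nr4a1, the EGR site in Nr4a1, and the C/EBP-ATF element (TGATGCAA read on the other strand) in Atf3. The Atf3 stretch is chr1:191183341-191183490 (minus strand), that of Fos chr12:85473740-85473889 (plus), that of Junb chr8:84978749-84978898 (minus) and that of Nr4a1 chr15:101266696-101266845 (plus).
Atf3: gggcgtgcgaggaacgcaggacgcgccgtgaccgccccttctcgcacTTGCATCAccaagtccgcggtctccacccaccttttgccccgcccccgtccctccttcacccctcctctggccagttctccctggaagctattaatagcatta
Fos: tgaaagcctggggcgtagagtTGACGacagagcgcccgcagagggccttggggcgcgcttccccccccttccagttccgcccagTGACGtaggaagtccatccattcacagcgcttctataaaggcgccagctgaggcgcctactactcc
Junb: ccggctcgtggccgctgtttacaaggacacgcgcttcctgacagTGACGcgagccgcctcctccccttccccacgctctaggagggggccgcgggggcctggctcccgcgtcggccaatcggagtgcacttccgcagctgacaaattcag
Nr4a1: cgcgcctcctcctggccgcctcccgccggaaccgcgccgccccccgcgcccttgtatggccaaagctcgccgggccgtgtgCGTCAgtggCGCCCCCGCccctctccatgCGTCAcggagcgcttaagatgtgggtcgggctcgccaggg

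Motifs were searched on both strands of 300 bases, from 250 before to 50 after each RefSeq start. TGACG was found in 5 of the 8 promoters (Atf3, Fos, Fosb, Junb and Nr4a1), against 20.8% of 32851 promoters of the same length. Its first base lay 129 and 66 bases before the start of Fos, 106 before that of Junb, and 233, 213, 69 and 40 before that of Nr4a1. In Atf3 it began 7 bases before the start, just outside the stretch printed. The C/EBP-ATF element TGATGCAA, through which ATF4 and C/EBP proteins are known to act, was found in Atf3 alone of the 8, at 110 bases before the start, and in 0.895% of all promoters. The EGR site GCGNGGGCG was found in Fosb, Fosl2 and Nr4a1 and in 5.55% of all promoters, and the ETS core CCGGAA, left in lower case above, in Nr4a1 and in 14.9%. The whole cAMP response element TGACGTCA, which contains TGACG, was in none of the 8 and in 1.79% of all, the AP-1 sites TGACTCA and TGAGTCA in none and in 5.2%, and the CArG box, the site of SRF, in none and in 1.63%. The RefSeq start was not always the end of the gene span given by the annotation. For Atf3 (span 191170296 to 191218039), Nr4a1 (101254269 to 101274795) and Fosl2 the window lay inside the span. For Jund the last base before the RefSeq start was 70697738, upstream of a span that begins at 70698949. These are matches of letters within 1 window. Windows at other starts, sites farther upstream, and the promoters of Egr1 and Ier2 were not searched.

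Library totals ran from 6496573 to 9978215 counts. The 24 h libraries lay far apart from each other, with a chi-square per gene of 29.2 to 95.2 between pairs, against 8.18 to 18.3 in the other groups. The summed level of 20 reticulocyte markers was 68030 to 77000 CPM in vehicle, 73150 to 86820 at 1 h, 124800 to 140000 at 6 h and 35960 to 108600 at 24 h. At 6 h 11 of these 20 markers were called higher and none lower, where 4.06% of tested genes were called higher and 0.785% lower. Neutrophil markers (20 genes) summed to 7702 to 15000 CPM in vehicle and 10190 to 16780 at 6 h, and monocyte markers (18 genes) to 6836 to 8976 and 5430 to 6314. At 6 h 1 of the 20 neutrophil markers was called higher and none lower (11 positive, median log2 fold change 0.18). Of the 18 monocyte markers 1 was called lower and none higher (15 negative, median -0.22). Their mean log2 CPM overlapped between the groups, at 7.08 to 7.33 in vehicle and 6.77 to 7.16 at 6 h. Dendritic cell markers (14 genes) summed to 139.1 to 250.6 CPM in vehicle and 100 to 135.1 at 6 h, without overlap, with 12 of 14 negative at 6 h, 1 of them called, and a median log2 fold change of -0.56. Levels below are CPM on library sizes scaled by TMM, as mean ± SD with n = 3, and because whole blood is a mixture, fewer cells of a type and less RNA per cell cannot be told apart.

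Per kilobase of merged exons, the scale on which genes can be compared, Junb stood first in vehicle blood at 100.2 ± 21.3 CPM per kb, followed by Jund at 55.3 ± 4.03, Ier2 at 40.9 ± 3.52 and Fosl2 at 36.3 ± 8.39. Fos followed at 18.4 ± 1.33, Nr4a1 at 12.5 ± 2.15, Atf3 at 6.04 ± 1.03, Jun at 2.66 ± 1.39, Egr1 at 1.25 ± 0.722 and Fosb at 0.134 ± 0.0841. Of the neighbours in this order, Ier2 and Fosl2 differed by less than the SD of Fosl2, and Jun and Egr1 by about the SD of Jun. At 6 h Jund, at 69.9 ± 5.1, stood level with Junb, at 65.7 ± 9.08. Atf3 lay at the 70.8 percentile of 13366 genes in vehicle and at the 49.2 percentile at 6 h.

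Atf3 was lower in treated blood, most at 6 h. Vehicle libraries held 11.3, 12.3 and 15.5 CPM of Atf3. Those of 1 h held 6.67, 5.93 and 6.57 CPM, those of 6 h held 5.23, 5.07 and 5.14, and those of 24 h held 10.8, 8.67 and 8.75. All 9 treated libraries lay below the lowest vehicle library, as they did for 0.77% of tested genes. The 24 h libraries lay above those of 1 h and of 6 h, as for 5.64% and 10.5% of tested genes. These levels rest on 97, 114 and 122 counts in vehicle and 35, 41 and 40 at 6 h. The 95% Poisson interval of 6 h replicate 1 was 3.64 to 7.27 CPM and that of vehicle replicate 1 was 9.14 to 13.7 CPM, and such intervals cover counting error only. The SD among the 6 h libraries, 0.0763 CPM, was smaller than the 0.883 CPM that counting error alone gives for replicate 1, so the closeness of those 3 values is not a measure of precision.

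**Figure D1:**
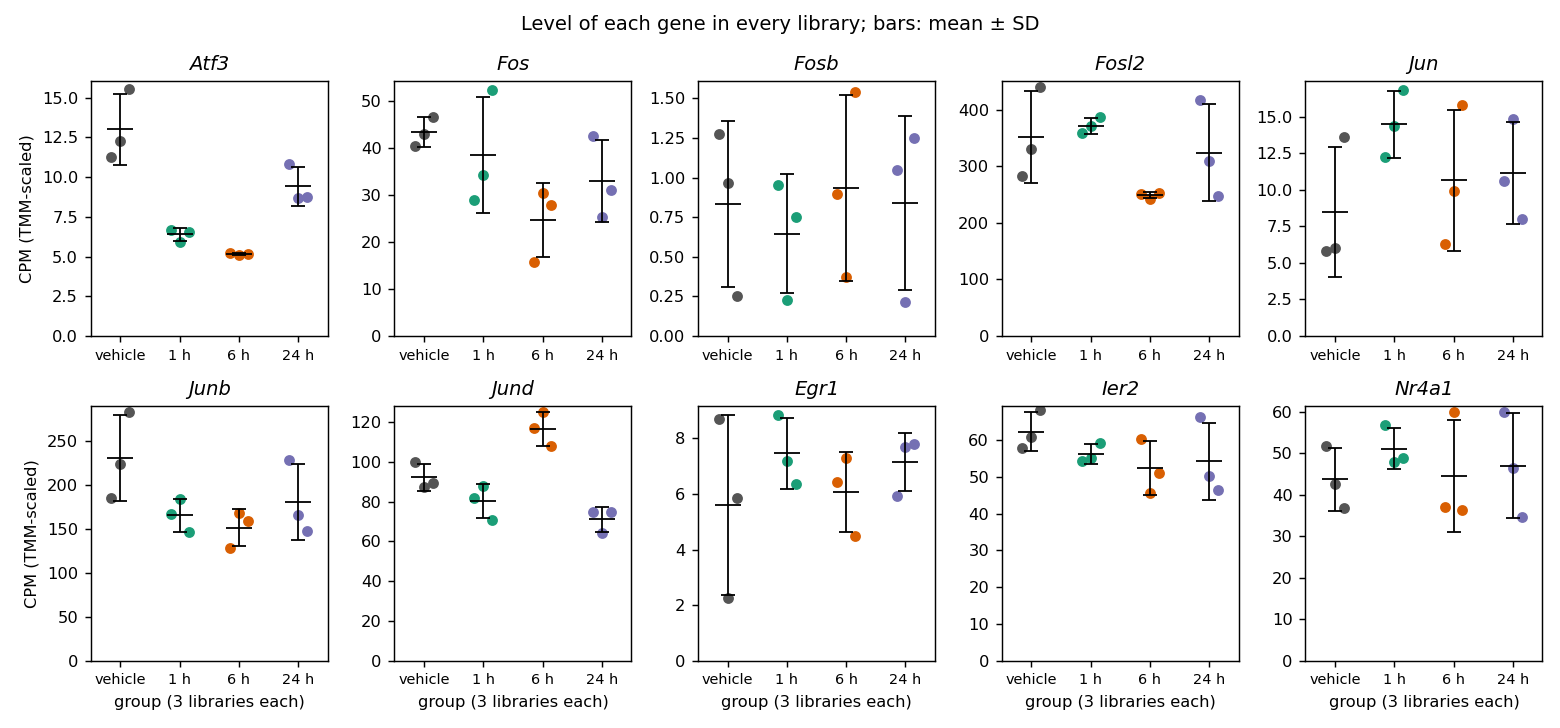
Level of each of the 10 genes in every library, in CPM on TMM-scaled library sizes (vertical axis, from 0, separate for each gene), by group (horizontal axis). Points are libraries and bars are mean ± SD, n = 3; Atf3 has means of 13.02 CPM in vehicle, 6.39 at 1 h, 5.15 at 6 h and 9.42 at 24 h, and Fosb lies lowest of the 10.

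The log2 fold change of Atf3 (ENSMUSG00000026628, GRCm38 chromosome 1, 191170296 to 191218039, minus strand, 5 merged exons) at 6 h was -1.34 (SE 0.23, 95% interval -1.82 to -0.85, adjusted p = 0.00365), a fall to 0.396 of vehicle. It was the 1 of 9 tested members called at 6 h, where 0.785% of tested genes were called lower and 4.06% higher. The call held in each of 12 fits that left out 1 library, with adjusted p from 0.00165 to 0.0209. It also held with libraries scaled by their totals (-1.79, adjusted p = 0.00232) and by the neutrophil markers (-1.56, adjusted p = 0.0429). Under these scalings the median of all tested genes at 6 h was itself -0.50 and -0.32, a shift shared by every 6 h value against vehicle given with them below. The reticulocyte marker sum was higher at 6 h, the monocyte and dendritic cell marker sums were lower, as given above, and their part in the result was not tested.

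At 1 h the log2 fold change of Atf3 was -1.02 (SE 0.22, adjusted p = 0.0887), which missed the threshold in edgeR and passed it in DESeq2 (adjusted p = 0.00916). It also passed in edgeR without 24 h replicate 1 or without 24 h replicate 3, with a lowest adjusted p of 0.0396, whereas the largest over the 12 such fits was 0.331. In all, 0 of 9 members were called at 1 h by edgeR, where 0.0149% of tested genes were called lower and 0.179% higher. Of the 9, 2 had an unadjusted p under 0.05, both lower, DESeq2 called 1 and limma-voom 0. At 24 h the log2 fold change of Atf3 was -0.46 (SE 0.22, 95% interval -0.93 to 0.00, adjusted p = 0.603). Again 0 of 9 members were called, against 0% of tested genes lower and 0.105% higher, with 1 member at an unadjusted p under 0.05 and none called by DESeq2 or limma-voom. On library totals alone, 24 h replicate 1 stood at 14.3 CPM, within the vehicle range of 12.6 to 15.9.

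Over the mean of the 3 times, Atf3 had a log2 fold change of -0.94 (SE 0.17, adjusted p = 0.0186), and it was the only 1 of the 9 called, where 0.0523% of tested genes were called lower. That call was lost without vehicle replicate 1 (adjusted p = 0.061), 2 (0.105) or 3 (0.146), and with neutrophil marker scaling (-0.86, adjusted p = 0.394). Between times, Atf3 was 0.87 higher on the log2 scale at 24 h than at 6 h (SE 0.23, adjusted p = 0.0586), which DESeq2 called (adjusted p = 0.0198). It was -0.31 at 6 h against 1 h (SE 0.23, adjusted p = 0.474). The test for any difference among the 3 times gave an adjusted p of 0.0954 for Atf3, and called 0 of 9 members against 0.755% of tested genes, with 3 at an unadjusted p under 0.05 and 1 called by each of DESeq2 and limma-voom.

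**Figure D2:**
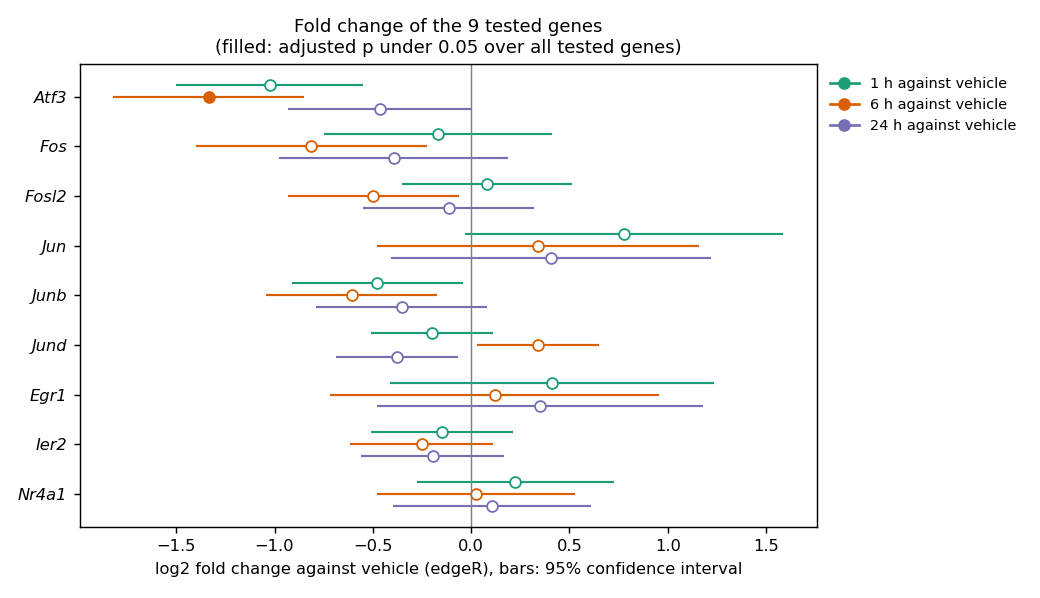
Log2 fold change against vehicle (horizontal axis) of the 9 tested genes at 1, 6 and 24 h, from edgeR, with 95% confidence intervals as bars; filled points passed an adjusted p of 0.05 over all 13384 genes. The single filled point is Atf3 at 6 h, at -1.34, and all 3 points of Atf3 lie left of 0.

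Among the Fos family, whose proteins form AP-1 only with a partner, Fos and Fosl2 were both lowest at 6 h without passing the test. Fos was at 40.3, 43.0 and 46.6 CPM in vehicle and at 28.9, 34.2 and 52.3 CPM 1 h after the dose. It was at 15.7, 30.3 and 27.8 CPM after 6 h and at 42.5, 25.2 and 31.1 CPM after 24 h. All libraries of 6 h lay below the vehicle libraries, as did 13.5% of tested genes, and the 1 h and 24 h libraries overlapped with vehicle. The log2 fold change of Fos at 6 h was -0.81 (SE 0.28, adjusted p = 0.109). It passed without a filter on low counts (adjusted p = 0.011), with only the vehicle and 6 h groups fitted (0.0468) and with library totals alone (-1.26, adjusted p = 0.028).

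Fosl2 encodes Fra-2, a Fos protein without the strong activation domain of Fos. It was at 282, 331 and 441 CPM in vehicle, 358, 371 and 387 after 1 h, 250.4, 243 and 254 after 6 h, and 416, 309 and 248 after 24 h. Libraries of 6 h lay below every vehicle and every 1 h library, as did 13.5% and 13.8% of tested genes. The 24 h libraries spanned nearly the whole range. The log2 fold changes were -0.50 against vehicle (SE 0.20, adjusted p = 0.185) and -0.58 against 1 h (SE 0.20, adjusted p = 0.141). The second passed with only the 2 groups fitted (adjusted p = 0.00304), and without 24 h replicate 1 or 3, with a lowest adjusted p of 0.0389. Library totals alone gave -0.95 against vehicle (adjusted p = 0.0328), in a fit that called 1832 genes in all, against 648 in the main fit.

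Fosb had 2 to 12 counts in each library. Its mean was 0.833 ± 0.525 CPM in vehicle, 0.645 ± 0.375 at 1 h, 0.937 ± 0.587 at 6 h and 0.838 ± 0.548 at 24 h, and the groups overlapped. Without the filter its log2 fold change at 6 h was 0.15 (unadjusted p = 0.868). Differences of this size were not detectable at this depth.

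At 6 h Junb was lower and Jund higher than in vehicle, neither past the threshold of the test. Junb, first per kilobase in vehicle, was at 185, 224 and 282 CPM in vehicle, 166, 184 and 146 after 1 h, 128, 168 and 158 after 6 h, and 229, 165 and 147 after 24 h. All 1 h and all 6 h libraries lay below the lowest vehicle library, as for 8.44% and 13.5% of tested genes, whereas 24 h replicate 1 lay within the vehicle range. The log2 fold change of Junb, each with an SE of 0.20, was -0.48 at 1 h, -0.61 at 6 h and -0.35 at 24 h, with adjusted p of 0.64, 0.107 and 0.689. At 6 h Junb passed with only the 2 groups fitted (adjusted p = 0.0431), without 24 h replicate 1 or 3 (lowest adjusted p = 0.0338) and with library totals alone (-1.05, adjusted p = 0.0238). Over all genes the fit of 2 groups called 1382 and that with totals 1832, against 648 in the main fit.

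Jund, which is known to be expressed steadily in resting cells and to respond least to stimuli among the Jun genes, was at 99.8, 87.2 and 89.6 CPM in vehicle and 81.8, 87.9 and 71.0 at 1 h. It was at 117, 125 and 108 at 6 h, all above vehicle, as for 15.8% of tested genes. At 24 h it was at 74.5, 64.0 and 74.7, all below vehicle, as for 5.61%. On library totals alone both the 6 h and the 24 h libraries overlapped with vehicle. Against vehicle the log2 fold change of Jund, each with an SE of 0.14, was 0.34 at 6 h and -0.38 at 24 h, with adjusted p of 0.205 and 0.507. At 24 h against 6 h it was -0.72 (SE 0.15, 95% interval -1.03 to -0.40, adjusted p = 0.0324), the 1 call among 9 members in that comparison, where 1.25% of tested genes were called lower and 0.508% higher. That call held in 2 of the 12 fits without 1 library, those without vehicle replicate 1 (adjusted p = 0.0498) and without 24 h replicate 3 (0.00393), and the largest adjusted p, without 24 h replicate 2, was 0.134. It was also lost with only the 2 groups fitted (adjusted p = 0.216), with library totals alone (-0.20, adjusted p = 0.425) and with neutrophil marker scaling (-0.28, adjusted p = 0.602). At 6 h against 1 h Jund stood 0.54 higher (SE 0.14, adjusted p = 0.0875), and DESeq2 called it there (adjusted p = 0.0124), while edgeR called 0 of 9 members, against 0.134% of tested genes higher and 0.359% lower, with 3 at an unadjusted p under 0.05 and limma-voom calling 0.

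Both genes overlap a gene on the other strand, and whether counting used strand is not stated in the labels or notes. Jund shares 877 of its 1668 exon bases with the antisense gene Gm11175, which was at 84.9 ± 8.65 CPM in vehicle, 94.3 ± 4.8 at 1 h, 129.6 ± 8.53 at 6 h and 96.8 ± 23.5 at 24 h. Reads of Jund and Gm11175 therefore cannot be told apart in the shared part if counting ignored strand. Junb shares 173 of 2301 exon bases with Prdx2, a peroxiredoxin abundant in red cells, which was at 398 ± 60.6 CPM in vehicle and 1009 ± 13.3 at 6 h. The level of Prdx2 was higher at 6 h, whereas that of Junb was lower.

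Jun, the partner of Fos in classical AP-1, was low beside most other members, though at the 51.3 percentile of 13366 genes per kilobase in vehicle. It was at 5.81, 6.02 and 13.6 CPM in vehicle, 12.3, 14.4 and 16.8 after 1 h, 6.27, 9.90 and 15.8 after 6 h, and 10.6, 14.8 and 7.97 after 24 h. Vehicle replicate 3 stood above the other vehicle libraries by more than their whole level, and every treated group overlapped with vehicle. The log2 fold change was 0.78 at 1 h (SE 0.38, 95% interval -0.03 to 1.59, adjusted p = 0.733), 0.34 at 6 h (SE 0.38) and 0.41 at 24 h (SE 0.38). At 6 h its sign turned with library totals alone (-0.10) and without 6 h replicate 3 (-0.06).

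Shares within a family do not depend on how libraries are scaled. As shares of the Jun family per kilobase, Junb made up 62.9% ± 5.78 in vehicle, 57.7% ± 0.59 at 1 h, 47.2% ± 3.21 at 6 h and 62.5% ± 4.98 at 24 h. Jund made up 35.5% ± 6.26, 38.6% ± 0.51, 50.5% ± 4.13 and 34.7% ± 5.1. The Junb share was 43.5% to 49.7% in the 6 h libraries and at least 56.6% in each of the other 9, so the 6 h group did not overlap with any other. Jun itself made up 1.63% ± 0.63 in vehicle and 3.69% ± 0.9 at 1 h, with ranges of 1.25% to 2.36% and 3.07% to 4.73%. These shares carry the overlap of Jund with Gm11175, were not tested, and show unequal change without saying which gene changed. How often shares among other genes set the 6 h libraries apart in this way was not counted. In the Fos family Fosl2 made up 65.8% ± 3.55 in vehicle and 71.1% ± 7.18 at 6 h, and Fos 34.0% ± 3.36 and 28.3% ± 7.01, with overlapping libraries.

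**Figure D3:**
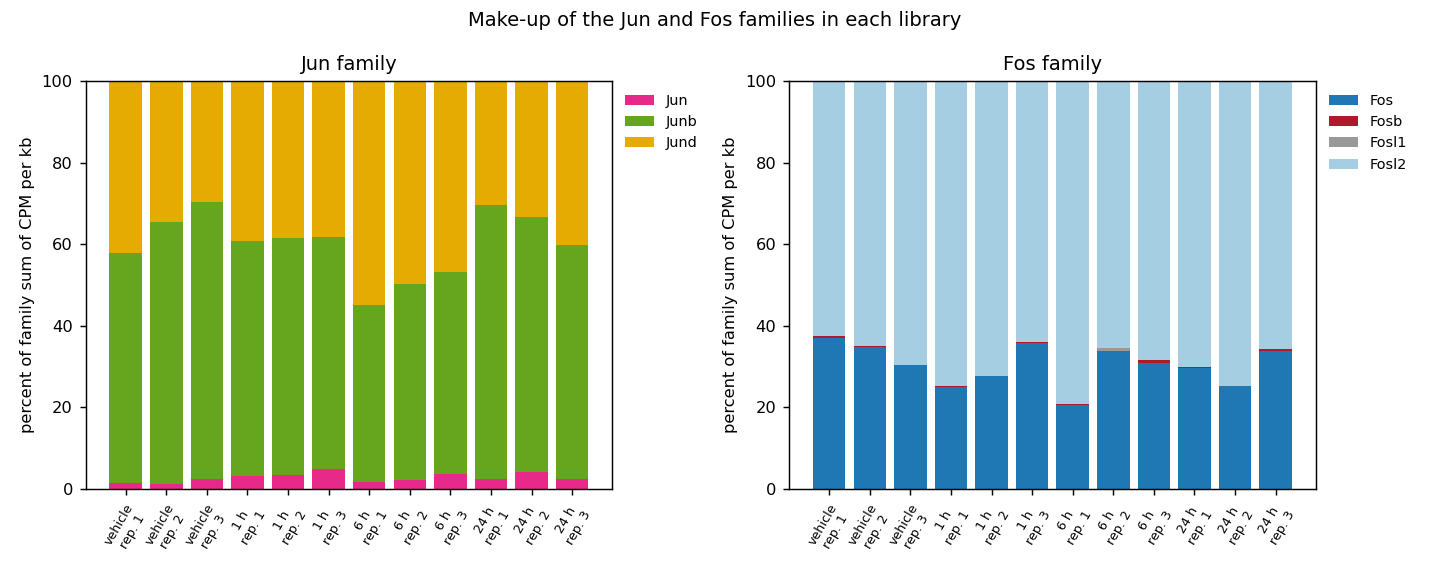
Make-up of the Jun family (left) and the Fos family (right) in each of the 12 libraries, as percent of the family's summed CPM per kb (vertical axis, 0 to 100). The Jund segment is widest in the 3 libraries of 6 h, at 46.8% to 54.9%, and Fosl1 and Fosb are slivers at under 1%.

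Egr1, Ier2 and Nr4a1, which belong to other families than AP-1, passed the test in none of the comparisons. Egr1, a zinc finger factor that recruits its own corepressors Nab1 and Nab2, was at 8.72, 2.26 and 5.85 CPM in vehicle, 8.85, 7.19 and 6.35 after 1 h, 6.42, 7.30 and 4.50 after 6 h, and 5.94, 7.69 and 7.81 after 24 h. Its vehicle libraries alone spanned most of the range of all 12. Its log2 fold change was 0.41 at 1 h (SE 0.39, 95% interval -0.41 to 1.24), 0.12 at 6 h (SE 0.39, -0.72 to 0.95) and 0.35 at 24 h (SE 0.39, -0.48 to 1.18), with adjusted p of 0.869 or more.

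Ier2, a nuclear protein induced by growth factors, was at 57.8, 60.9 and 68.2 CPM in vehicle, 54.3, 55.1 and 59.2 after 1 h, 60.3, 45.7 and 51.2 after 6 h, and 66.3, 50.2 and 46.6 after 24 h. Its log2 fold change was -0.15 at 1 h (SE 0.17), -0.25 at 6 h (SE 0.17, 95% interval -0.61 to 0.11, adjusted p = 0.447) and -0.20 at 24 h (SE 0.17). Every group overlapped with vehicle.

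Nr4a1, an orphan nuclear receptor needed for nonclassical monocytes, was at 51.7, 42.7 and 36.8 CPM in vehicle, 56.8, 47.8 and 48.8 after 1 h, 37.0, 60.02 and 36.3 after 6 h, and 59.9, 46.5 and 34.7 after 24 h. In each of the 6 h and 24 h groups 1 library stood well above the lowest. Its log2 fold change was 0.22 at 1 h (SE 0.23), 0.02 at 6 h (SE 0.24, 95% interval -0.48 to 0.53, adjusted p = 0.969) and 0.11 at 24 h (SE 0.23). Nr4a1 is also 1 of the 18 monocyte markers, whose summed level at 6 h is given above.

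Across the 9 tested members the median log2 fold change was -0.15 at 1 h, -0.25 at 6 h and -0.20 at 24 h, beside -0.02, -0.04 and 0.01 over all tested genes. These 3 comparisons share the vehicle libraries. At 6 h 5 of the 9 had an unadjusted p under 0.05, with Jund higher and Atf3, Fos, Fosl2 and Junb lower, against 19.6% of tested genes in either direction. At 1 h 2 had one (Atf3 and Junb, against 6.99% of tested genes), at 24 h 1 (Jund, 8.37%), and over the mean of the times 2 (Atf3 and Junb, 10.5%). Between times it was 3 at 6 h against 1 h (Fos, Fosl2 and Jund, 20.7%) and 2 at 24 h against 6 h (Atf3 and Jund, 22.1%). At 24 h against 1 h edgeR, DESeq2 and limma-voom each called 0 of 9, where edgeR called 0.0224% of tested genes lower and 0% higher, and Atf3 alone had an unadjusted p under 0.05 (0.56 higher, SE 0.22, adjusted p = 0.756), as did 6.11% of tested genes.

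Counted by libraries that did not overlap, at 1 h Atf3 and Junb lay wholly below vehicle, as did 8.44% of tested genes, and no member lay wholly above, as did 8.92%. At 6 h Atf3, Fos, Fosl2 and Junb lay below (13.5% of tested genes) and Jund above (15.8%). At 24 h Atf3 and Jund lay below (5.61%) and none above (6.34%). Across all 9 treated libraries Atf3 lay below (0.77%) and none above (1.3%). The libraries of 6 h lay below those of 1 h for Atf3 and Fosl2 (13.8%) and above for Jund (18.1%). Those of 24 h lay above those of 6 h for Atf3 (10.5%) and below for Jund (12%), and above those of 1 h for Atf3 (5.64%), with none below (4.74%). All of these are on TMM-scaled CPM. On library totals alone Jund was at 92.0 to 111.5 CPM in vehicle and 77.2 to 89.2 at 1 h. It was then at 84.3 to 101.5 at 6 h and 63.8 to 98.5 at 24 h. None of the Jund separations listed held on that scale, while its 1 h libraries lay wholly below vehicle. Atf3 at 24 h, at 7.48 to 14.3 CPM, then overlapped with vehicle, at 12.6 to 15.9.

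The direction of several members at 6 h depended on how libraries were scaled. With library totals alone the median of all tested genes moved from -0.04 to -0.50 on the log2 scale, and with neutrophil markers to -0.32. Jun, Jund, Egr1 and Nr4a1, positive with TMM, were negative with library totals (-0.10, -0.12, -0.34 and -0.43), and Egr1 (-0.16) and Nr4a1 (-0.25) were also negative with neutrophil scaling. Atf3, Fos, Fosl2, Junb and Ier2 were negative under each of the 4 scalings.

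**Figure D4:**
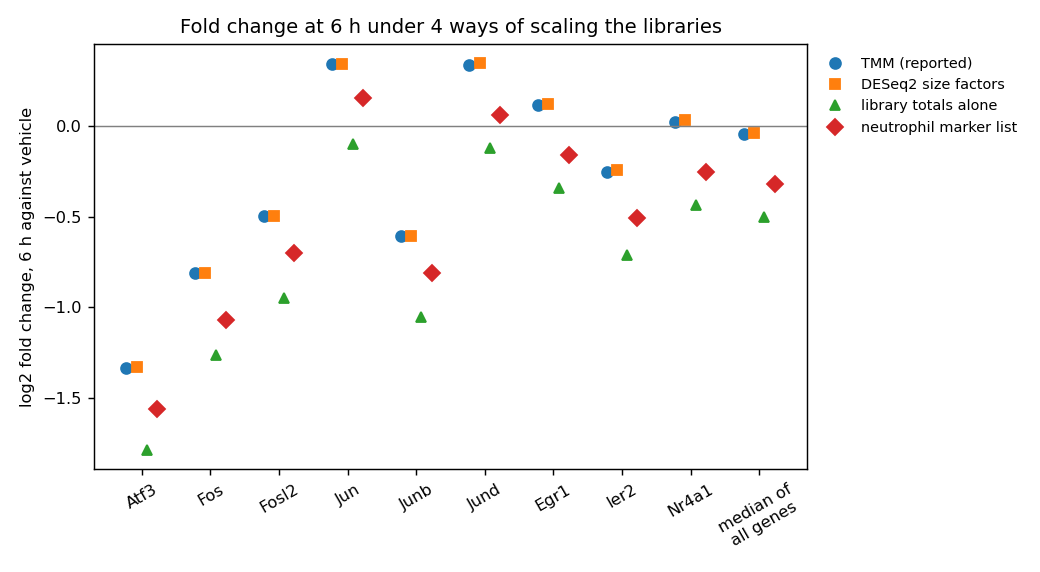
Log2 fold change at 6 h against vehicle (vertical axis) of the 9 tested genes and the median of all tested genes, under 4 ways of scaling the libraries (symbols). Library totals alone shift every point down, the all-gene median from -0.04 to -0.50, and Atf3 is the lowest gene under each scaling, from -1.33 to -1.79.

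The rest of the pathway was read from 6 lists with 118 tested genes outside the members. At 6 h 10 of the 118 were called higher and 3 lower, where 4.06% and 0.785% of tested genes were, and with library totals alone 7 were higher and 23 lower. Under library totals 1832 of 13384 tested genes were called and the median of all genes was -0.50. At 1 h and at 24 h edgeR called 0 of the 118, where it called 0.179% of tested genes higher and 0.0149% lower at 1 h and 0.105% and 0% at 24 h. At 1 h 9 were higher and 10 lower at an unadjusted p under 0.05, against 6.99% of tested genes in either direction, DESeq2 called 4 higher and 1 lower and limma-voom none. At 24 h 9 were higher and 8 lower at an unadjusted p under 0.05, against 8.37% of tested genes, DESeq2 called 4 higher and 1 lower and limma-voom none. Values that follow are for 6 h against vehicle unless another comparison is named.

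Among 20 tested AP-1 and bZIP partners 2 rose and none fell, with a median log2 fold change of -0.06. Crem, a CREB-related factor whose ICER products repress cAMP-responsive genes, rose from 6.77 ± 1.89 CPM to 36.0 ± 6.85, a log2 fold change of 2.41 (SE 0.34, adjusted p = 0.00126), and passed in all 12 fits without 1 library. Nfe2, a bZIP factor of erythroid cells and megakaryocytes, rose from 154 ± 11.9 CPM to 289 ± 9.67 (0.91, SE 0.19, adjusted p = 0.014). The call of Nfe2 was lost without vehicle replicate 1 or 2 or 6 h replicate 1 (largest adjusted p = 0.0828), with library totals alone (0.45, adjusted p = 0.0543) and with neutrophil scaling (0.65, adjusted p = 0.349).

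Among 24 further immediate early genes 1 fell and none rose, with a median of -0.28. Klf10, a zinc finger factor induced by TGF-beta, fell from 58.8 ± 17.6 CPM to 26.7 ± 0.763 (-1.13, SE 0.21, adjusted p = 0.00584), passed in all 12 fits without 1 library, and stood at 63.7 ± 6.9 at 24 h. Of these 24 genes 18 were negative and 6 positive, and 6 had an unadjusted p under 0.05, all negative, against 19.6% of tested genes in either direction. At 1 h it was 4 of the 24, all negative, against 6.99% of tested genes, and at 24 h 1, against 8.37%.

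Among 21 feedback inhibitors, which include phosphatases of MAP kinases and factors that degrade the transcripts of early genes, 2 rose and 1 fell, with a median of -0.08. Dusp10, a phosphatase of JNK and p38, went from 8.73 ± 2.11 CPM to 19.5 ± 2.77 (1.16, SE 0.24, adjusted p = 0.0128). Dusp8, of the same class, went from 5.75 ± 2.17 CPM to 21.1 ± 5.14 (1.87, SE 0.42, adjusted p = 0.0215). Zfp36l2, which binds AU-rich elements of messenger RNAs, went from 585 ± 43.8 CPM to 397 ± 13.9 (-0.56, SE 0.15, adjusted p = 0.0494). Leaving out 1 library cost Dusp10 its call in 3 of 12 fits (without vehicle replicate 1 or 3 or 6 h replicate 2), Dusp8 in 5 (without any vehicle library or 6 h replicate 1 or 3) and Zfp36l2 in 10 (all but those without 24 h replicate 1 or 3), with largest adjusted p of 0.0795, 0.0994 and 0.159. Dusp10 also lost its call with library totals alone (adjusted p = 0.0942) and with neutrophil scaling (0.321), and Zfp36l2 with neutrophil scaling (0.213).

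Among 28 upstream kinases and factors 2 rose and 1 fell, with a median of -0.04. Braf, the kinase at the head of the ERK cascade, rose from 142 ± 34.7 CPM to 309 ± 11.9 (1.12, SE 0.20, adjusted p = 0.00472) and passed in all 12 fits without 1 library, though not with neutrophil scaling (0.94, adjusted p = 0.118). Map2k2, which phosphorylates ERK, went from 52.8 ± 1.7 CPM to 78.7 ± 3.56 (0.57, SE 0.15, adjusted p = 0.0391), a call kept in 2 of 12 such fits and lost with library totals alone (0.12, adjusted p = 0.62) and with neutrophil scaling (0.30, adjusted p = 0.661). Map3k5, a stress kinase upstream of JNK, went from 75.4 ± 13.7 CPM to 45.1 ± 5.7 (-0.74, SE 0.18, adjusted p = 0.0335), a call lost without any single vehicle or 6 h library and with neutrophil scaling (adjusted p = 0.164).

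Among 17 stress genes that act upstream of Atf3 or beside it 3 rose and none fell, with a median of -0.14. Asns, asparagine synthetase and a target of ATF4, rose from 10.8 ± 3.55 CPM to 68.1 ± 10.6 (2.67, SE 0.27, adjusted p = 0.000144). Atf5 rose from 20.4 ± 3.83 CPM to 75.2 ± 18.3 (1.88, SE 0.34, adjusted p = 0.00617). Eif2ak1, the haem-regulated eIF2-alpha kinase of red cell precursors, rose from 78.5 ± 8.84 CPM to 204 ± 16.8 (1.38, SE 0.23, adjusted p = 0.00374). Each of the 3 passed in all 12 fits without 1 library, and Eif2ak1 lost its call with neutrophil scaling (1.13, adjusted p = 0.0783). In the same comparison Atf3 fell, while Atf4 was at 0.38 (SE 0.15, adjusted p = 0.177) and Ddit3 at -0.30 (SE 0.20, adjusted p = 0.448), values chosen after they were seen because both encode known regulators or partners of Atf3. These 3 rises occurred with the higher reticulocyte marker sum of the 6 h libraries, whose part in them was not tested.

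Among 9 tested genes of an induced inflammatory list of 15 genes 1 rose and none fell, with a median of -0.02. Thbs1, thrombospondin of platelet granules and activated monocytes, rose from 359 ± 47.9 CPM to 974 ± 90.3 (1.44, SE 0.20, adjusted p = 0.00119) and passed in all 12 fits without 1 library. Platelet markers (12 genes) summed to 2328 to 3344 CPM in vehicle and 3118 to 4286 at 6 h.

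**Figure D5:**
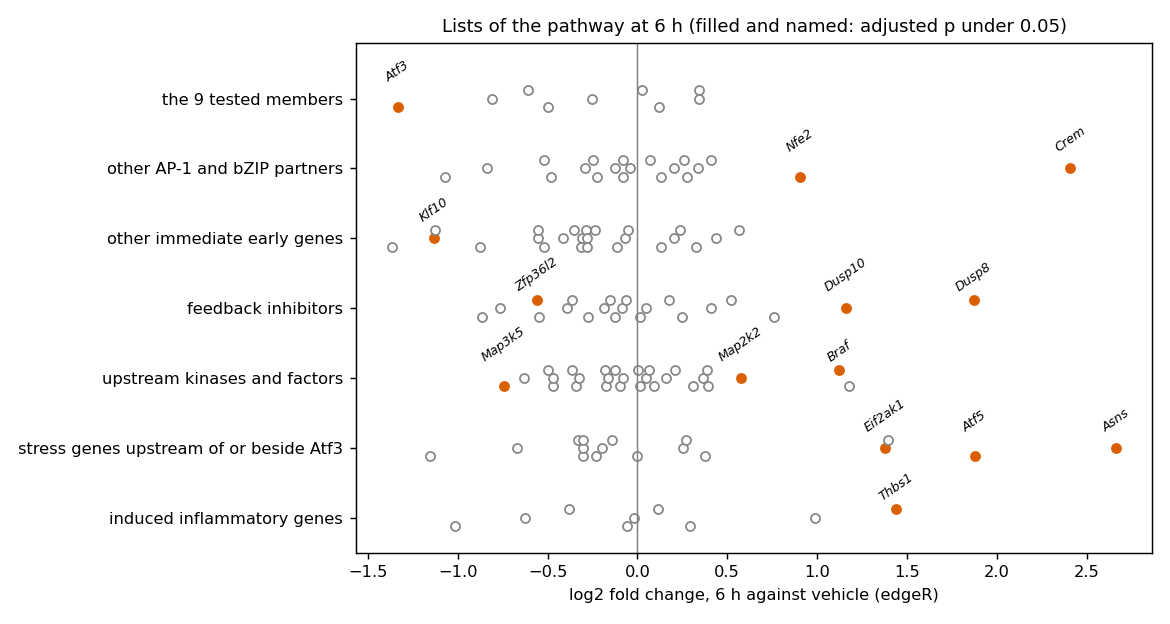
Log2 fold change at 6 h against vehicle (horizontal axis) of every tested gene of the member list and the 6 further lists (rows); filled, named points passed an adjusted p of 0.05 and vertical offsets within a row only separate points. Atf3 at -1.34 and Klf10 at -1.13 are the named falls furthest left, and Asns at 2.67 and Crem at 2.41 the rises furthest right.

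Over the mean of the 3 times 6 of the 118 genes were called higher and none lower, where 0.882% and 0.0523% of tested genes were. They were Crem (1.54), Dusp10 (0.98), Dusp16 (0.68), Braf (0.92), Asns (1.57) and Thbs1 (0.94), with adjusted p from 0.00681 for Asns to 0.0479 for Dusp16. Each of the 6 lost its call in at least 2 of the fits without 1 library, and the fits without vehicle replicate 1 and without vehicle replicate 2 cost all 6 their calls.

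Across the 12 libraries, the 5 genes whose log2 CPM followed Atf3 most closely among 7285 genes with a mean log2 CPM of at least 3 were Gad1-ps (Pearson r = 0.89, Spearman rho = 0.80), Zfp646 (0.89 and 0.90), Aprt (0.89 and 0.87), Sntb2 (0.87 and 0.90) and Atrn (0.87 and 0.90). Without the 2 libraries farthest from the median of Atf3, vehicle replicates 2 and 3, r was 0.81, 0.84, 0.82, 0.78 and 0.82. Taken as deviations from the group means, r in the same order was 0.42, 0.81, 0.56, 0.83 and 0.49. Gad1-ps is a pseudogene and may share reads with its parent gene. The median r over the 7285 genes was 0.02 and the 95th percentile 0.63, and the libraries share group, depth and cell make-up. Of the members, Junb followed Atf3 most closely (r = 0.79), then Fos (0.59), Ier2 (0.57) and Fosl2 (0.52), whereas r was negative for Nr4a1 (-0.09), Egr1 (-0.25), Jun (-0.25) and Jund (-0.41). Those 4 signs depended on the scaling: with library totals alone r was 0.51 for Nr4a1, 0.19 for Egr1, 0.20 for Jun and 0.21 for Jund. Without the 2 farthest libraries r was also positive for Egr1 (0.39) and Nr4a1 (0.24). Taken as deviations from the group means, the closest member was Fosl2 (r = 0.88), followed by Ier2 (0.72), Junb (0.69), Jun (0.42) and Fos (0.34).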

How the data were processed

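The authors deposited counts per gene as whole numbers, not scaled to library size, for 55367 mouse Ensembl genes in 12 libraries. Per the labels' protocols, RNA came from a PAXgene blood kit, ribosomal RNA was depleted and reads were paired. RSEM is named, without a version, per the submitters' processing notes, so the counts may be rounded estimates. The build those notes name is human, whereas the identifiers are those of mouse genes. Which aligner, annotation and strand setting were used is not stated there. Positions and exon lengths came from GENCODE M21 on GRCm38, which held 55035 of the identifiers.

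Counts were fitted with edgeR 4.0.16 in R 4.3.3 (filterByExpr by group, TMM, quasi-likelihood, 4 group means over 12 libraries). Benjamini-Hochberg adjustment ran over 13384 genes, with calls at 0.05, and every adjusted p is from this model unless named otherwise. Exact permutation of 3 against 3 libraries cannot go below a two-sided p of 0.1. Likeness used log2 CPM with a prior count of 2. Alternatives used DESeq2 1.42.0 and limma-voom 3.58.1, other scalings and filters, and each library left out. The fit was tested on simulated data. Members, lists, tests and alternatives were chosen with earlier results of these data known, from textbook knowledge. Named genes were the members, up to 4 called genes per list with the smallest p, and the 5 genes most like Atf3. Same-numbered libraries did not deviate together. No 2 libraries of the same group agreed within sampling noise.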

Additional observations from a re-analysis of the deposited data

Results flagged for a closer look

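A difference between 2 collection times under treatment, tested in the same edgeR model, was found for 1 member and 5 genes of the further lists. Jund was lower at 24 h than at 6 h by a log2 change of -0.72 (SE 0.15, adjusted p = 0.0324). Klf10 was higher at 24 h than at 6 h (1.25, adjusted p = 0.0201), as was Map3k5 (0.87, adjusted p = 0.0377). Asns was lower at 24 h than at 6 h (-1.87, adjusted p = 0.0197) and higher at 6 h than at 1 h (1.43, adjusted p = 0.0347). Eif2ak1 was lower at 24 h than at 6 h (-0.99, adjusted p = 0.0477), and Thbs1 was higher at 6 h than at 1 h (1.03, adjusted p = 0.0459).

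Each of these calls was lost in some fits without 1 library: Klf10 in 5 of 12, Asns in 4 (24 h against 6 h) and 8 (6 h against 1 h), Thbs1 in 9, Jund and Map3k5 in 10 each, and Eif2ak1 in 11. With only the 24 h and 6 h groups fitted, none of the 5 differences between those times passed, with adjusted p of 0.216 for Jund, 0.114 for Klf10, 0.194 for Map3k5, 0.221 for Eif2ak1 and 0.114 for Asns. With libraries scaled by the neutrophil markers all 7 calls were lost. At 24 h against 6 h the adjusted p was then 0.602 for Jund, 0.0534 for Klf10, 0.0823 for Map3k5, 0.249 for Eif2ak1 (-0.60) and 0.0587 for Asns. At 6 h against 1 h it was 0.154 for Asns and 0.288 for Thbs1 (0.61).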

How the results depend on the processing

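Numbers of members called depended on the fit. At 1 h it was 0 in edgeR, 1 in DESeq2 and 0 to 1 without 1 library. At 6 h it was 1, against 4 with library totals alone (Atf3, Fos, Fosl2 and Junb), 2 without a filter, 3 with only the groups compared and 1 to 2 without 1 library. Over the mean of the times it was 1, against 0 with neutrophil scaling and 0 to 1 without 1 library. At 6 h against 1 h it was 0, against 1 with totals, 1 in DESeq2, 2 with only the groups compared and 0 to 2 without 1 library. At 24 h against 6 h it was 1 (Jund), against 4 with totals, 0 with neutrophil scaling and 2 in DESeq2. It was 2 with the filter of 5 CPM in 3 libraries, 0 with only the groups compared and 0 to 2 without 1 library. The 4 with totals were Atf3, Fos, Fosl2 and Junb, all higher at 24 h, and Jund lost its call. The median log2 fold change of all tested genes was then 0.56, against 0.04 with TMM. Among the 3 times it was 0, against 2 with totals, 1 each in DESeq2, limma-voom, without a filter and with the 5 CPM filter, and 0 to 1 without 1 library. The causes were not tested. Over all genes, 648 were called at 6 h, 1832 with totals, 1160 in DESeq2, 1265 without a filter and 1382 with only the groups compared. For the other comparisons the numbers over all genes under the alternatives are not given here, so the member counts lack that background.

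Signs turned with library totals at 6 h for Jun (-0.10), Jund (-0.12), Egr1 (-0.34) and Nr4a1 (-0.43), at 24 h for Fosl2 (0.0074), over the mean for Nr4a1 (-0.0084), and at 24 h against 1 h for Egr1 (0.0083), Ier2 (0.0717) and Nr4a1 (0.0186). With neutrophil scaling they turned at 1 h for Ier2 (0.0349), at 6 h for Egr1 (-0.16) and Nr4a1 (-0.25), and at 24 h for Fosl2 (0.17) and Ier2 (0.0293). Without 1 library, log2 fold changes at 1 h ran from -0.44 to 0.0193 for Fos and -0.0401 to 0.30 for Fosl2. At 6 h they ran from -0.0555 to 0.84 for Jun, -0.29 to 0.57 for Egr1 and -0.25 to 0.15 for Nr4a1. At 24 h they ran from -0.34 to 0.0927 for Fosl2, -0.0304 to 0.825 for Egr1 and -0.10 to 0.28 for Nr4a1, and over the mean from -0.315 to 0.0263 for Fosl2 and -0.0915 to 0.76 for Egr1. At 24 h against 6 h they ran from -0.20 to 0.46 for Jun, -0.0918 to 0.17 for Ier2 and -0.11 to 0.36 for Nr4a1. At 24 h against 1 h they ran from -0.47 to 0.0543 for Fos, -0.10 to 0.25 for Junb, -0.175 to 0.0631 for Egr1, -0.23 to 0.048 for Ier2 and -0.34 to 0.0555 for Nr4a1.

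By Spearman rho 3 of the 5 genes most like Atf3 were shared, and with library totals 2. Without division by length Junb made up 69.2% of the Jun family in vehicle. TGACG lay in 2 of 8 promoters (Atf3 and Nr4a1) in the 100 bases from 50 before to 50 after the start, against 9.64% of all promoters. Fosb had 16 to 22 counts per group, too few to pass the filter.

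Replicate numbers are shared by the groups. Over 18 same-numbered pairs the correlation of deviations from group means ran from -0.11 to 0.17, above 0.1 in 2. No shared deviation was seen, which cannot exclude that same-numbered libraries shared an animal, day or batch. With a replicate block the number of members called was 0 at 1 h, 1 at 6 h, 0 at 24 h, 1 over the mean, 0 at 6 h against 1 h, 1 at 24 h against 6 h and 0 at 24 h against 1 h, as without it, and Atf3 at 6 h was -1.33 (adjusted p = 0.00706), while Zfp36l2 and Map2k2 at 6 h and Dusp10 over the mean missed the threshold under it.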
